A study of Mus musculus with 2 samples.

Results

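Radial glia were recovered from CD31 microbead-sorted cells of the mouse brain at embryonic stage E12.5, as 1432 of 27041 cells kept in both libraries. A kept cell had at least 1000 unique molecular identifiers (UMIs, each counting 1 captured RNA molecule), at least 500 genes and at most 20% mitochondrial UMIs. A cell was counted as radial glia when it held a UMI of at least 4 of 9 genes (Sox2, Pax6, Hes5, Fabp7, Nr2e1, Ttyh1, Sox1, Sox3 and Lhx2). It could hold a UMI of at most 1 of 5 cortical intermediate progenitor genes, at most 1 of 4 neuronal genes and at most 1 of 4 endothelial genes. The cells were thus chosen by the measured UMIs of these genes, whose levels describe the choice.

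Radial glia are the stem cells of the embryonic brain. They span its wall from the ventricle to the outer surface, divide at the ventricle and give rise to intermediate progenitors and neurons, and later to glia. Notch signalling keeps them as progenitors: neighbouring cells on the way to becoming neurons present Delta ligands, and the receptors on radial glia switch on Hes genes. Their outer end feet reach the surface of the brain and its vessels, and radial glia are known as a source of signals to the growing vasculature.

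The libraries came from Foxq1iECKO brains and from Foxq1flox/flox brains, 1 library each, and the labels call both samples endothelial cells after the CD31 sort. Foxq1 encodes a forkhead transcription factor. The labels give neither the driver of the recombination nor the number or sex of the embryos. Cells were dissociated with enzymes for 90 min at 37°C before the sort, and tags were read from the 3′ end of polyadenylated RNA.

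The Foxq1iECKO library held 678 radial glia among 13108 kept cells (5.17% [4.80, 5.57]) and the Foxq1flox/flox library 754 among 13933 (5.41% [5.04, 5.80]). Brackets give exact 95% intervals throughout, which cover counting error only. With 1 library per genotype there is no test and no replicate check, and values are compared by size. Radial glia carried a median of 4009 UMIs in Foxq1iECKO and 4211.5 in Foxq1flox/flox, and summed to 3520378 UMIs in Foxq1iECKO and 3525709 in Foxq1flox/flox. The 2 libraries held 72445925 UMIs in Foxq1iECKO and 76580165 in Foxq1flox/flox. They shared 270 of their cell barcodes, none of them among the radial glia. In the gated endothelial cells Foxq1, the targeted gene, was at 271 CPM in Foxq1iECKO and 478 CPM in Foxq1flox/flox. In radial glia it was at 5.68 CPM [3.47, 8.77] in Foxq1iECKO and 8.51 CPM [5.74, 12.2] in Foxq1flox/flox (20 UMIs in Foxq1iECKO and 30 in Foxq1flox/flox), and 1.29% [0.56, 2.53] in Foxq1iECKO and 1.45% [0.698, 2.65] in Foxq1flox/flox of radial glia had a Foxq1 UMI when every cell was thinned to 2000 UMIs. That share was 0.829% [0.171, 2.4] in Foxq1iECKO and 2.43% [1.51, 3.69] in Foxq1flox/flox in gated neurons and 28.5% [26.7, 30.3] in Foxq1iECKO and 39.2% [37.5, 41.05] in Foxq1flox/flox in endothelial cells. Foxq1 was thus lower in the Foxq1iECKO endothelial cells, and its RNA was close to absent from radial glia of both libraries.

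Cells just inside the threshold, with 4 of the 9 genes, numbered 185 in Foxq1iECKO and 172 in Foxq1flox/flox, and cells just outside, with 3, numbered 223 in Foxq1iECKO and 189 in Foxq1flox/flox. Id4 was at 649 CPM (counts per 1e6 UMIs summed over the cells) in Foxq1iECKO and 523 CPM in Foxq1flox/flox cells just inside, against 412 CPM in Foxq1iECKO and 356 CPM in Foxq1flox/flox cells just outside. The collagen gene Col1a2 was at 288 CPM in Foxq1iECKO and 228 CPM in Foxq1flox/flox cells inside, against 1339 CPM in Foxq1iECKO and 648 CPM in Foxq1flox/flox cells outside. Cells on the outer side of the threshold held less Id4 and more connective tissue RNA. In Foxq1iECKO Notch1 and Hes1 went the other way, at 257 CPM and 252 CPM outside against 209 CPM and 238 CPM inside. In Foxq1flox/flox both were higher inside. Nes was close, at 223 CPM in Foxq1iECKO and 232 CPM in Foxq1flox/flox outside, against 235 CPM in Foxq1iECKO and 256 CPM in Foxq1flox/flox inside. The threshold was thus not a sharp border for radial glia genes. Among cells with at least 4 of the 9 genes, 344 of 1022 in Foxq1iECKO and 197 of 951 in Foxq1flox/flox were left out by the other limits.

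Of the 20 genes that stood furthest above the other kept cells in both libraries, ranked among the 2239 genes at 100 or more CPM in radial glia of both, 8 were genes of the rule. The other gene of the rule, Hes5, lay below that level and was not ranked. The others included Sox21, Aldoc, Gm29260, Fgfbp3, Ptprz1, Fut9, Adgrv1, Otx1, Hopx, Rgs20 and Mir9-3hg. Sox21, a transcription factor of neural progenitors, was at 250.3 CPM in Foxq1iECKO radial glia and 279 CPM in Foxq1flox/flox radial glia, against 15.6 CPM in Foxq1iECKO and 14.7 CPM in Foxq1flox/flox other cells. Ptprz1, a receptor phosphatase of the radial process, was at 535 CPM in Foxq1iECKO radial glia and 611 CPM in Foxq1flox/flox radial glia, against 49.5 CPM in Foxq1iECKO and 36.7 CPM in Foxq1flox/flox other cells. Hopx, known from outer radial glia and adult neural stem cells, was at 134 CPM in Foxq1iECKO radial glia and 121 CPM in Foxq1flox/flox radial glia, against 10.5 CPM in Foxq1iECKO and 7.3 CPM in Foxq1flox/flox other cells. Of the rule's genes, Ttyh1 was at 702 CPM in Foxq1iECKO radial glia and 620.0 CPM in Foxq1flox/flox radial glia, against 33.3 CPM in Foxq1iECKO and 13.02 CPM in Foxq1flox/flox other cells, and Pax6 at 232 CPM in Foxq1iECKO radial glia and 249 CPM in Foxq1flox/flox radial glia, against 12.9 CPM in Foxq1iECKO and 8.87 CPM in Foxq1flox/flox other cells.

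Radial glia genes that took no part in the choice were also high in these cells. Nes, the intermediate filament of neural stem cells, was at 277 CPM [259.6, 295] in Foxq1iECKO and 277 CPM [260.3, 295] in Foxq1flox/flox radial glia, against 82.8 CPM in Foxq1iECKO and 61.4 CPM in Foxq1flox/flox cells of the cortical intermediate class. That class was gated on 2 or more of Eomes, Neurod1, Neurod2, Neurod6 and Tbr1 and holds intermediate progenitors and young cortical neurons. Slc1a3, the glutamate transporter GLAST, was at 308 CPM [289.6, 326] in Foxq1iECKO and 273 CPM [256, 291] in Foxq1flox/flox radial glia, against 67.5 CPM in Foxq1iECKO and 27.96 CPM in Foxq1flox/flox intermediate cells. Sox9, which maintains neural stem cells, was at 837 CPM in Foxq1iECKO and 923 CPM in Foxq1flox/flox radial glia, against 334 CPM in Foxq1iECKO and 217 CPM in Foxq1flox/flox intermediate cells and 201 CPM in Foxq1iECKO and 151 CPM in Foxq1flox/flox gated neurons. Vim was at 2005 CPM in Foxq1iECKO and 1547 CPM in Foxq1flox/flox radial glia but at 3590.0 CPM in Foxq1iECKO and 3300.0 CPM in Foxq1flox/flox endothelial cells.

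Of 30 radial glia genes not used in the choice, 29 were measured against the intermediate class, and 20 were higher in radial glia by 2-fold or more in both libraries and 0 lower. Over all 9131 genes compared in the same way, 267 were higher (2.92%) and 589 lower (6.45%). Against gated neurons 26 of the 29 were higher and 0 lower, beside 761 higher (8.02%) and 1080 lower (11.4%) of 9486 genes. Against endothelial cells 17 of 30 were higher and 1 lower, beside 1368 higher (14.9%) and 1074 lower (11.7%) of 9199 genes. The 14 neuronal genes not named in the rule were all lower in radial glia than in the intermediate class and than in neurons. Tubb3, a neuronal tubulin, was at 86.9 CPM in Foxq1iECKO and 71.5 CPM in Foxq1flox/flox radial glia, against 999.7 CPM in Foxq1iECKO and 1179 CPM in Foxq1flox/flox neurons, and Dcx, a microtubule protein of migrating neurons, at 31.5 CPM in Foxq1iECKO and 47.9 CPM in Foxq1flox/flox radial glia, against 1366 CPM in Foxq1iECKO and 1344 CPM in Foxq1flox/flox neurons.

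**Figure D1:**
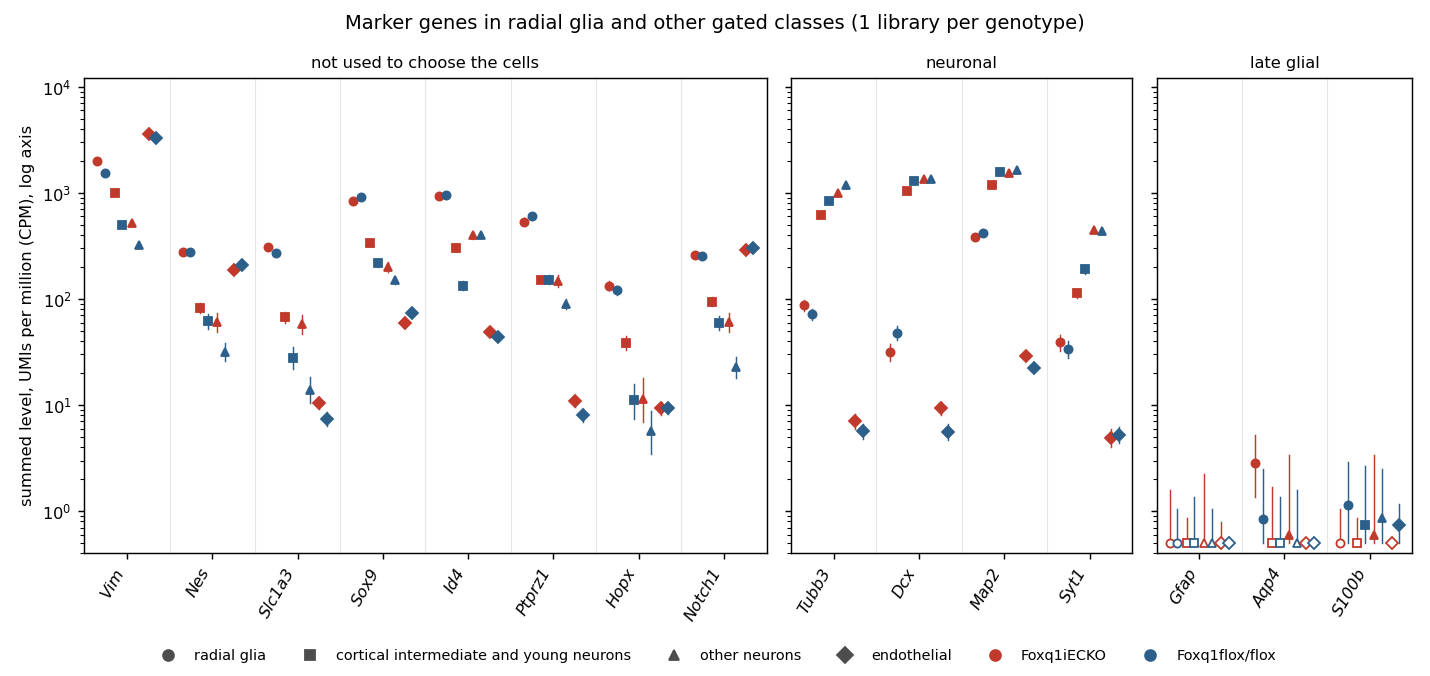
Summed level (CPM, log axis) of marker genes in radial glia (circles), the cortical intermediate class (squares), other neurons (triangles) and endothelial cells (diamonds), in Foxq1iECKO (red) and Foxq1flox/flox (blue), with 1 library per genotype. Lines are exact 95% Poisson intervals, open symbols stand at or below 0.5 CPM, and the circles lie above the squares and triangles for Nes, Slc1a3 and Sox9 and below them for the neuronal genes.

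Gfap, Aqp4 and S100b, genes of mature astrocytes, were near 0. Gfap was at 0.284 CPM in Foxq1iECKO and 0 CPM in Foxq1flox/flox radial glia, and Aqp4, the astrocyte water channel, at 2.84 CPM in Foxq1iECKO and 0.851 CPM in Foxq1flox/flox. S100b was at 0 CPM in Foxq1iECKO and 1.14 CPM in Foxq1flox/flox. In contrast Nfia and Nfib, transcription factors that later take part in gliogenesis, were at 899 CPM in Foxq1iECKO and 907 CPM in Foxq1flox/flox and at 2053 CPM in Foxq1iECKO and 2124 CPM in Foxq1flox/flox, yet Nfib was higher still in the intermediate class, at 4413 CPM in Foxq1iECKO and 4371 CPM in Foxq1flox/flox. Hmga2, a chromatin protein of early neural stem cells, was at 354 CPM in Foxq1iECKO and 415 CPM in Foxq1flox/flox radial glia, against 132 CPM in Foxq1iECKO and 89.8 CPM in Foxq1flox/flox intermediate cells.

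Several Notch receptors and targets differed between radial glia and the intermediate class in one direction, and the ligands Dll1 and Dll3 in the other. Among receptors, Notch1 was at 258 CPM in Foxq1iECKO and 256 CPM in Foxq1flox/flox radial glia, against 94.04 CPM in Foxq1iECKO and 59.6 CPM in Foxq1flox/flox intermediate cells, and Notch2 and Notch3 were also 2-fold or more higher in radial glia. Among targets, Hes1 was at 356 CPM in Foxq1iECKO and 362 CPM in Foxq1flox/flox radial glia, against 114 CPM in Foxq1iECKO and 32.4 CPM in Foxq1flox/flox intermediate cells, and Hey1 at 386 CPM in Foxq1iECKO and 348 CPM in Foxq1flox/flox radial glia, against 189 CPM in Foxq1iECKO and 108 CPM in Foxq1flox/flox intermediate cells. These ligands ran the other way: Dll1 was at 44.9 CPM in Foxq1iECKO and 40.6 CPM in Foxq1flox/flox radial glia, against 116 CPM in Foxq1iECKO and 98.6 CPM in Foxq1flox/flox intermediate cells, and Dll3 at 17.04 CPM in Foxq1iECKO and 20.1 CPM in Foxq1flox/flox radial glia, against 78.3 CPM in Foxq1iECKO and 71.01 CPM in Foxq1flox/flox intermediate cells. Of 27 Notch pathway genes 22 were measured, with 7 higher in radial glia (Notch1, Notch2, Notch3, Hes1, Hes5, Hey1 and Lfng) and 4 lower (Dll1, Dll3, Mfng and Dner). Over all 9131 genes compared in the same way 2.92% were higher and 6.45% lower. The other measured Notch genes passed the limit in neither direction, and the modulators Lfng and Mfng went in opposite directions. Hes5 was among the genes of the rule. The ligand Jag1 was at 34.1 CPM in Foxq1iECKO and 34.9 CPM in Foxq1flox/flox radial glia and at 28.6 CPM in Foxq1iECKO and 34.2 CPM in Foxq1flox/flox intermediate cells, and was highest in endothelial cells, at 121 CPM in Foxq1iECKO and 113 CPM in Foxq1flox/flox.

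Hes5, a repressor of neuronal differentiation induced by Notch, was at 48.3 CPM [41.3, 56.1] in Foxq1iECKO and 49.9 CPM [42.8, 57.9] in Foxq1flox/flox radial glia. Fabp7, the brain fatty acid binding protein and a classical radial glia marker, was at 1536 CPM [1496, 1578] in Foxq1iECKO and 1189 CPM [1153, 1225] in Foxq1flox/flox radial glia. Both are regarded as Notch targets, and the DNA-binding partner of Notch, RBPJ, is known to bind the letters TGGGAA. Both promoters are shown for that reason, from 250 bases before to 50 bases after the gene's start, from RefSeq in build GRCm38.p6 (mm10), on the plus strand, with matches to TGGGAA or its reverse complement TTCCCA in capitals. The Hes5 window is chr4:154960673-154960972 and the Fabp7 window chr10:57784673-57784972.
Hes5: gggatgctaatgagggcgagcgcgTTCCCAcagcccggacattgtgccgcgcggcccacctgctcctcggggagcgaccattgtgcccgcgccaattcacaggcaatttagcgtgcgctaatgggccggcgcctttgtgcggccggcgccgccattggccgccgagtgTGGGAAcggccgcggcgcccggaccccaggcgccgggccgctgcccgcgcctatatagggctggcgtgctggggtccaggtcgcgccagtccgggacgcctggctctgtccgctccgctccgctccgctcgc
Fabp7: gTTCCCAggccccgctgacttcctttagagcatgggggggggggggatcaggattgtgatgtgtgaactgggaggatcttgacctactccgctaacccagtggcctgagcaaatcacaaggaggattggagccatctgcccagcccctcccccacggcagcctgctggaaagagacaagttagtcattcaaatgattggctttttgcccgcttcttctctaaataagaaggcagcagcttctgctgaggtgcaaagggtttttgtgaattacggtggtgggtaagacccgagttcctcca
The Hes5 window held 2 matches, the reverse complement starting 226 bases before the gene's start and TGGGAA starting 82 bases before it. The Fabp7 window held 1, the reverse complement starting 249 bases before the start. Of all 32851 promoter windows of this length 25.56% held at least 1 match on either strand and 3.79% held 2 or more. A match is a description of the letters and was not tested as a site.

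**Figure D2:**
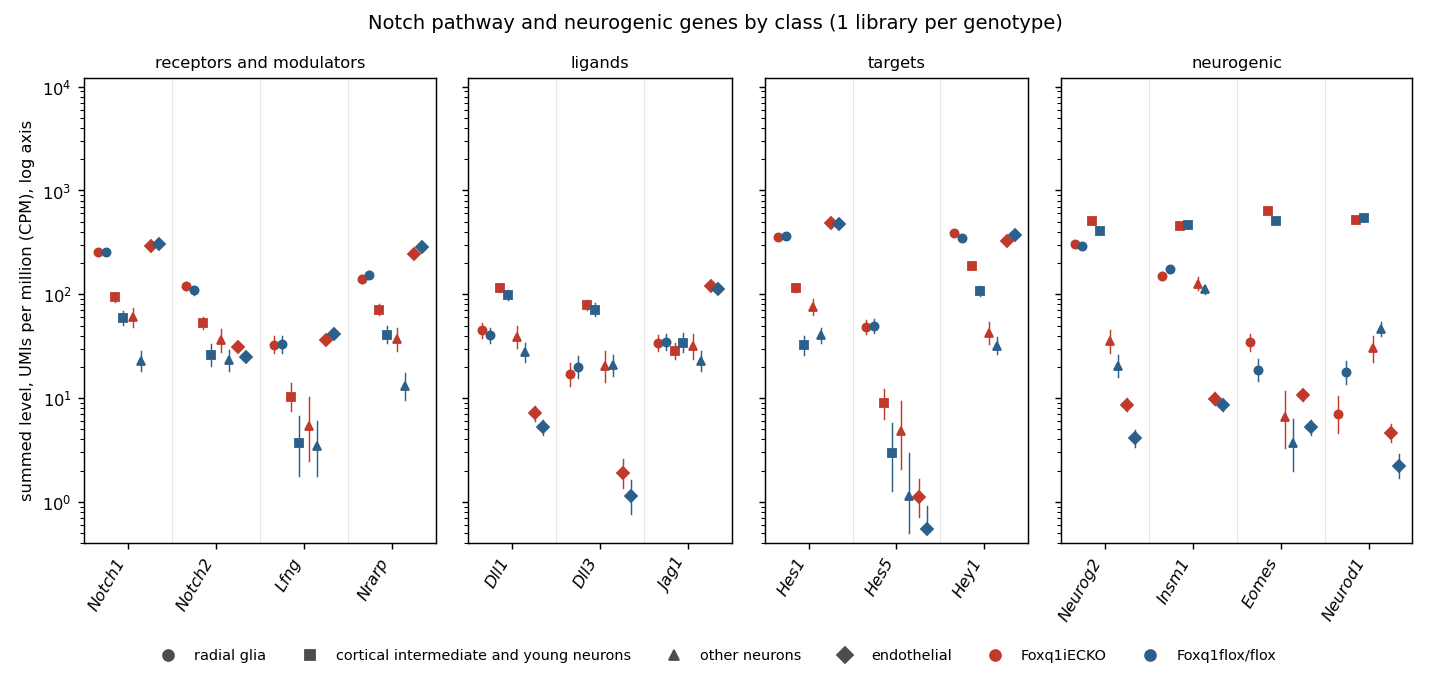
Summed level (CPM, log axis) of Notch receptors and modulators, ligands, targets and neurogenic genes in 4 gated classes, symbols and colours as in the plot of marker genes (Foxq1iECKO red and left in each pair, Foxq1flox/flox blue). Receptors and targets lie higher in radial glia than in the cortical intermediate class, and Dll1, Dll3, Insm1, Eomes and Neurod1 lie lower.

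Neurogenic genes were already present in radial glia. Neurog2, which drives excitatory neurogenesis in the cortex, was at 305 CPM in Foxq1iECKO and 291 CPM in Foxq1flox/flox radial glia, against 506 CPM in Foxq1iECKO and 405 CPM in Foxq1flox/flox intermediate cells. Of 22 neurogenic genes 13 were 2-fold or more lower in radial glia than in the intermediate class, among them Insm1 at 151 CPM in Foxq1iECKO and 174 CPM in Foxq1flox/flox radial glia, against 453 CPM in Foxq1iECKO and 467 CPM in Foxq1flox/flox intermediate cells. Of all 9131 genes in that comparison 6.45% were lower. Eomes and Neurod1 were also lower, and the rule used both. In cells thinned to 2000 UMIs, Neurog2 was found in 35.9% [29.7, 42.5] of Foxq1iECKO and 36.2% [30.2, 42.5] of Foxq1flox/flox radial glia with a Hes1 UMI. Among radial glia without one it was found in 22.2% [18.1, 26.6] in Foxq1iECKO and 19.9% [16.2, 23.9] in Foxq1flox/flox. The share with Neurog2 was higher among cells with Hes1 in both libraries, with counting intervals that did not overlap. Both genes were high in the same group of radial glia described below, and the part of such groups in this was not tested. Dll1 was found in 6.93% of Foxq1iECKO and 4.47% of Foxq1flox/flox cells with Hes1. Among cells without Hes1 it was found in 7.22% in Foxq1iECKO and 9.26% in Foxq1flox/flox.

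The label of forebrain was checked with regional genes that the choice did not use. Emx2, which patterns the cortex, was at 191 CPM [176, 206] in Foxq1iECKO and 240.0 CPM [224, 257] in Foxq1flox/flox radial glia, and after thinning 32.8% [29.1, 36.6] in Foxq1iECKO and 31.6% [28.2, 35.3] in Foxq1flox/flox of radial glia had an Emx2 UMI. The share was 0.804% [0.485, 1.25] in Foxq1iECKO and 0.802% [0.509, 1.2] in Foxq1flox/flox of endothelial cells. Otx2, a gene of the midbrain, diencephalon and choroid plexus, was at 163 CPM [149.7, 177] in Foxq1iECKO and 152 CPM [139, 165] in Foxq1flox/flox radial glia and was found in 13.6% [10.97, 16.5] in Foxq1iECKO and 15.7% [13.04, 18.6] in Foxq1flox/flox of thinned cells, against 0.677% [0.387, 1.1] in Foxq1iECKO and 0.558% [0.319, 0.905] in Foxq1flox/flox of endothelial cells. The thinned radial glia numbered 619 in Foxq1iECKO and 689 in Foxq1flox/flox, leaving out 59 shallower ones in Foxq1iECKO and 65 in Foxq1flox/flox. The unthinned shares in radial glia were 50.4% in Foxq1iECKO and 47.9% in Foxq1flox/flox for Emx2 and 17.1% in Foxq1iECKO and 19.5% in Foxq1flox/flox for Otx2. Median UMIs of endothelial cells were 6919 in Foxq1iECKO and 6216 in Foxq1flox/flox.

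Pax3, a dorsal gene of the midbrain and spinal cord, was at 92.3 CPM in Foxq1iECKO and 78.3 CPM in Foxq1flox/flox radial glia. Genes of the cortex and of more posterior regions were thus both present among the chosen cells. Hindbrain and spinal cord genes, most of them Hox genes, summed to 74.7 CPM in Foxq1iECKO and 52.2 CPM in Foxq1flox/flox over 22 genes, and 9 of them had no UMI in radial glia of either library.

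When the radial glia of both libraries were clustered together, without cell cycle genes among the variable genes, 9 groups formed. They are called by their leading genes, and the differences between them describe the clustering. Of these, 3 groups carried the genes of the dorsal telencephalon, the future cortex, and differed in state. The Scg2, Chac1 and Stc2 group (190 Foxq1iECKO and 147 Foxq1flox/flox cells) held Lhx2 at 1290.0 CPM in Foxq1iECKO and 1385 CPM in Foxq1flox/flox and Emx2 at 206 CPM in Foxq1iECKO and 218 CPM in Foxq1flox/flox. The Egr1, Hes1 and Neurog2 group (149 Foxq1iECKO and 168 Foxq1flox/flox cells) held Lhx2 at 1538 CPM in Foxq1iECKO and 1391 CPM in Foxq1flox/flox and Emx2, which patterns the medial cortex, at 323 CPM in Foxq1iECKO and 437 CPM in Foxq1flox/flox. The Prr15, Kif20a and Emx1 group (95 Foxq1iECKO and 140 Foxq1flox/flox cells) held Emx1, a marker of cortical progenitors, at 77.6 CPM in Foxq1iECKO and 73.6 CPM in Foxq1flox/flox.

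The state of these groups was seen in stress and immediate early genes. In the Scg2, Chac1 and Stc2 group Chac1, a target of the integrated stress response, was at 103 CPM in Foxq1iECKO and 97.8 CPM in Foxq1flox/flox, against 17.2 CPM in Foxq1iECKO and 3.73 CPM in Foxq1flox/flox cells of the Egr1, Hes1 and Neurog2 group. Asns, which makes asparagine and is induced by amino acid shortage, was at 117 CPM in Foxq1iECKO and 100.4 CPM in Foxq1flox/flox, against 27.2 CPM in Foxq1iECKO and 41.1 CPM in Foxq1flox/flox in the Egr1, Hes1 and Neurog2 group. Immediate early genes differed the other way, with Egr1 at 1135 CPM in Foxq1iECKO and 1381 CPM in Foxq1flox/flox cells of the Egr1, Hes1 and Neurog2 group, against 182 CPM in Foxq1iECKO and 179 CPM in Foxq1flox/flox in the Scg2, Chac1 and Stc2 group. Fos was at 676 CPM in Foxq1iECKO and 632 CPM in Foxq1flox/flox in the Egr1, Hes1 and Neurog2 group, against 130.5 CPM in Foxq1iECKO and 99.1 CPM in Foxq1flox/flox in the Scg2, Chac1 and Stc2 group. Hes1 was at 888 CPM in Foxq1iECKO and 837 CPM in Foxq1flox/flox in the Egr1, Hes1 and Neurog2 group, against 131 CPM in Foxq1iECKO and 149 CPM in Foxq1flox/flox in the Scg2, Chac1 and Stc2 group, and Hes5 at 109 CPM in Foxq1iECKO and 90.9 CPM in Foxq1flox/flox, against 4.8 CPM in Foxq1iECKO and 5.36 CPM in Foxq1flox/flox. Neurog2 was highest in the same cells, at 719 CPM in Foxq1iECKO and 667 CPM in Foxq1flox/flox. The part of the dissociation at 37°C in these immediate early and stress genes was not tested.

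The Prr15, Kif20a and Emx1 group had the highest Mki67, a marker of dividing cells, among the dorsal groups, at 1673 CPM in Foxq1iECKO and 1775 CPM in Foxq1flox/flox, against 557 CPM in Foxq1iECKO and 735 CPM in Foxq1flox/flox in the Scg2, Chac1 and Stc2 group. Its cells were the shallowest of the 3, with a median UMI count of 2704 in Foxq1iECKO and 2779 in Foxq1flox/flox, against 4244 in Foxq1iECKO and 4766 in Foxq1flox/flox in the Scg2, Chac1 and Stc2 group.

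The Six3, Dlk1 and Nkx2-1 group (87 Foxq1iECKO and 112 Foxq1flox/flox cells) carried genes of the ventral forebrain. Six3 was at 324 CPM in Foxq1iECKO and 342 CPM in Foxq1flox/flox, Nkx2-1, which patterns the medial ganglionic eminence and hypothalamus, at 167 CPM in Foxq1iECKO and 99.3 CPM in Foxq1flox/flox, and Gsx2, of the lateral ganglionic eminence, at 90.3 CPM in Foxq1iECKO and 59.6 CPM in Foxq1flox/flox. Neurog2 was at 57.9 CPM in Foxq1iECKO and 52.95 CPM in Foxq1flox/flox in this group, against 719 CPM in Foxq1iECKO and 667 CPM in Foxq1flox/flox in the Egr1, Hes1 and Neurog2 group. The Dlx6os1, Sp9 and Dlx1 group (10 Foxq1iECKO and 26 Foxq1flox/flox cells) carried more genes of inhibitory neuron precursors, with Dlx1 at 2400.0 CPM in Foxq1iECKO and 2627 CPM in Foxq1flox/flox, Gad2 at 790.0 CPM in Foxq1iECKO and 454 CPM in Foxq1flox/flox, and Hes1 at 0 CPM in Foxq1iECKO and 15.1 CPM in Foxq1flox/flox. Its 14 neuronal genes not named in the rule summed to 2796 CPM in Foxq1iECKO and 2544 CPM in Foxq1flox/flox, against 1044 CPM in Foxq1iECKO and 1066 CPM in Foxq1flox/flox in the Six3, Dlk1 and Nkx2-1 group. Its Mki67 level was the highest of all groups, at 2188 CPM in Foxq1iECKO and 1984 CPM in Foxq1flox/flox, and its Fabp7 level was low, at 91.2 CPM in Foxq1iECKO and 167 CPM in Foxq1flox/flox. These cells met the rule for radial glia yet carried the genes of dividing inhibitory progenitors.

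The Pax3, En2 and Shisa3 group (84 Foxq1iECKO and 97 Foxq1flox/flox cells) carried genes of the midbrain and of the diencephalon, which is part of the forebrain. Midbrain and isthmus genes summed to 2345 CPM in Foxq1iECKO and 2509 CPM in Foxq1flox/flox there. Diencephalon and hypothalamus genes summed to 1494 CPM in Foxq1iECKO and 1584 CPM in Foxq1flox/flox. Both sums were the highest of all groups, so the label of forebrain was not settled for these cells. Pax3 was at 511 CPM in Foxq1iECKO and 563 CPM in Foxq1flox/flox there, against 2.86 CPM in Foxq1iECKO and 4.98 CPM in Foxq1flox/flox in the Egr1, Hes1 and Neurog2 group, and Emx2 at 40.2 CPM in Foxq1iECKO and 9.05 CPM in Foxq1flox/flox. En2, a gene of the midbrain and isthmus, was at 106 CPM in Foxq1iECKO and 156 CPM in Foxq1flox/flox, Irx3 at 135 CPM in Foxq1iECKO and 138 CPM in Foxq1flox/flox and Otx2 at 690.3 CPM in Foxq1iECKO and 796 CPM in Foxq1flox/flox. Fabp7 reached its highest level there, at 5378 CPM in Foxq1iECKO and 4235 CPM in Foxq1flox/flox, against 719 CPM in Foxq1iECKO and 713 CPM in Foxq1flox/flox in the Egr1, Hes1 and Neurog2 group. Slc1a3 was likewise highest there, at 816 CPM in Foxq1iECKO and 697 CPM in Foxq1flox/flox.

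The Ttr, Rspo2 and Rspo3 group (12 Foxq1iECKO and 4 Foxq1flox/flox cells) carried genes of the cortical hem and choroid plexus, the medial edge of the cortex. Rspo3, a Wnt signal enhancer, was at 1055 CPM in Foxq1iECKO and 1314 CPM in Foxq1flox/flox, Wnt8b at 322 CPM in Foxq1iECKO and 861 CPM in Foxq1flox/flox and Wnt3a, the hem's own Wnt, at 64.3 CPM in Foxq1iECKO and 226 CPM in Foxq1flox/flox. Ttr, the transthyretin of the choroid plexus, was at 823 CPM in the 12 Foxq1iECKO cells and had no UMI in the 4 Foxq1flox/flox cells.

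Groups led by genes of other tissues made up the rest. The Col9a1, Matn1 and Col1a2 group (30 Foxq1iECKO and 40 Foxq1flox/flox cells) carried cartilage and connective tissue genes, with Col1a1 at 1452 CPM in Foxq1iECKO and 1274 CPM in Foxq1flox/flox, against 38.6 CPM in Foxq1iECKO and 21.2 CPM in Foxq1flox/flox in the Egr1, Hes1 and Neurog2 group. The Cpa3, Lyz2 and Ctss group (21 Foxq1iECKO and 20 Foxq1flox/flox cells) carried mast cell and macrophage genes, with Mrc1 at 1026 CPM in Foxq1iECKO and 767 CPM in Foxq1flox/flox, against 4.29 CPM in Foxq1iECKO and 3.73 CPM in Foxq1flox/flox in the Egr1, Hes1 and Neurog2 group. Median UMIs were 6888 in Foxq1iECKO and 7552 in Foxq1flox/flox in the first of these and 7211 in Foxq1iECKO and 8678 in Foxq1flox/flox in the second, above the 4009 in Foxq1iECKO and 4211.5 in Foxq1flox/flox over all radial glia. Scrublet, which scores barcodes against simulated doublets, called 15 of 30 in Foxq1iECKO and 16 of 40 in Foxq1flox/flox doublets in the Col9a1, Matn1 and Col1a2 group, and 7 of 21 in Foxq1iECKO and 5 of 20 in Foxq1flox/flox in the Cpa3, Lyz2 and Ctss group. Over all radial glia it called 22 in each library. These 2 groups stayed in the sums below, and results that rest on them are also given without them.

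**Figure D3:**
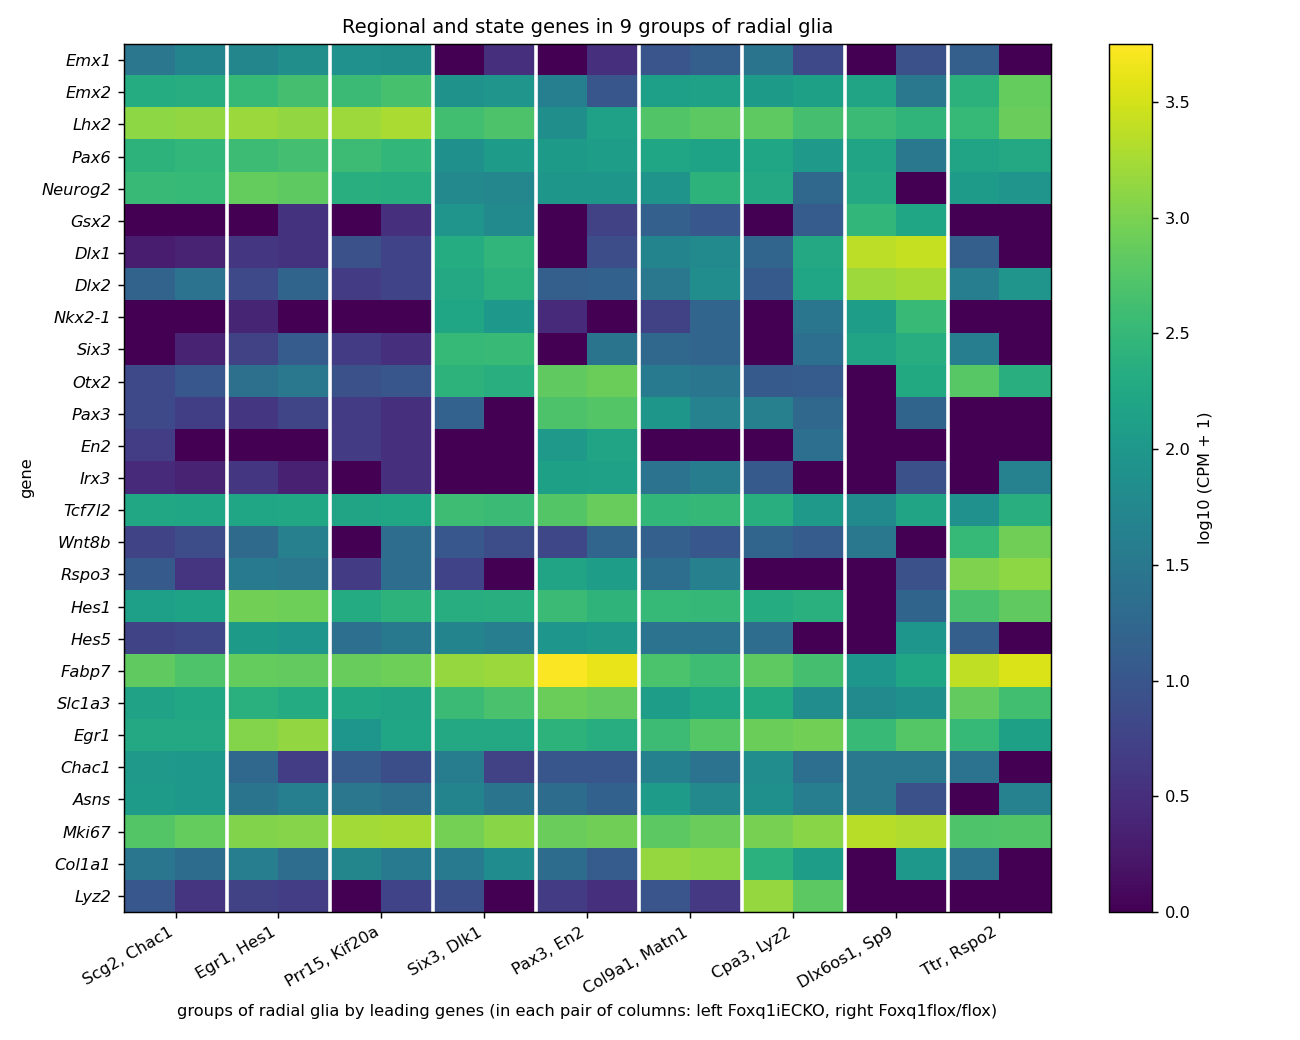
Level (log10 of CPM + 1, colour) of regional, Notch, glial and state genes (rows) in the 9 groups of radial glia (pairs of columns, Foxq1iECKO left and Foxq1flox/flox right), summed over the cells of each group. Fabp7 is highest in the Pax3, En2 group, and Dlx1 in the Dlx6os1, Sp9 group.

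Shares of the groups were set between libraries from a second clustering that left out the 381 genes at 10 or more CPM which differed by size between the libraries, since those genes include Scg2, Dlx1, Sp9 and Ttr, which led groups. It gave 8 groups. The dorsal group led by Stc2 and Ap1s3 held 25.4% [22.1, 28.8] in Foxq1iECKO and 18.4% [15.7, 21.4] in Foxq1flox/flox radial glia, and the dorsal dividing group led by Arhgef39 and Kif20a held 17.3% [14.5, 20.3] in Foxq1iECKO and 19.8% [16.98, 22.8] in Foxq1flox/flox. The ventral Six3 and Nkx2-1 group held 15.9% [13.3, 18.9] in Foxq1iECKO and 22.4% [19.5, 25.6] in Foxq1flox/flox, the Egr1 and Hes1 group 14.3% [11.8, 17.2] in Foxq1iECKO and 16.05% [13.5, 18.9] in Foxq1flox/flox and the Pax3 and Shisa3 group 11.7% [9.33, 14.3] in Foxq1iECKO and 11.1% [8.98, 13.6] in Foxq1flox/flox. The Rspo2 and Wnt8b group held 8.11% [6.17, 10.4] in Foxq1iECKO and 4.11% [2.81, 5.79] in Foxq1flox/flox, from 55 Foxq1iECKO and 31 Foxq1flox/flox cells. It was wider than the Ttr, Rspo2 and Rspo3 group of the first clustering, which had 12 Foxq1iECKO and 4 Foxq1flox/flox cells. The first group that gave it the most cells was the Egr1, Hes1 and Neurog2 group, with 18 Foxq1iECKO and 13 Foxq1flox/flox cells. The Col9a1 group held 4.42% [3.005, 6.26] in Foxq1iECKO and 5.44% [3.93, 7.3] in Foxq1flox/flox and the Cpa3 group 2.95% [1.81, 4.52] in Foxq1iECKO and 2.65% [1.63, 4.07] in Foxq1flox/flox.

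The counting intervals of the libraries overlapped in 5 of the 8 groups and not in the Stc2, Six3 and Rspo2 groups. For the first 2 of these the reading turned on the genes left out. When only the 184 genes at 20 or more CPM were left out, the group led by Stc2 and Ap1s3 held 24.6% [21.4, 28.1] in Foxq1iECKO and 20.7% [17.9, 23.8] in Foxq1flox/flox. The group led by Nkx2-1 and Six3 then held 14.3% [11.8, 17.2] in Foxq1iECKO and 17.2% [14.6, 20.1] in Foxq1flox/flox, and both pairs of intervals overlapped. The group with Rspo2 was led by Ttr in that clustering, so its share is not compared there. These intervals cover counting only, and differences between embryos or sorts are not part of them.

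**Figure D4:**
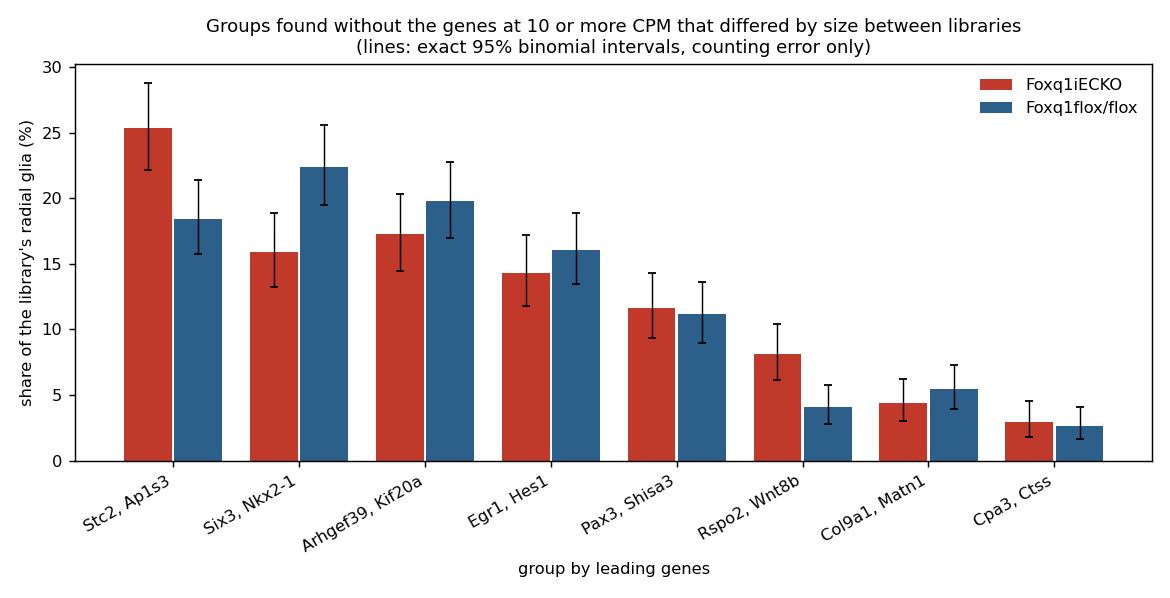
Share of each library's radial glia (%, bars, Foxq1iECKO red and left, Foxq1flox/flox blue) in 8 groups clustered without the genes at 10 or more CPM that differed by size between the libraries, with exact 95% binomial intervals as lines. The lines do not overlap for the Stc2, Six3 and Rspo2 groups; for the first 2 of these they overlapped when fewer genes were left out.

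Signals that radial glia are able to send to vessels were measured from a list of 41 genes. Vegfa, the main vascular growth factor, was at 109 CPM [98.2, 120.3] in Foxq1iECKO and 105 CPM [94.2, 116] in Foxq1flox/flox radial glia, against 70.1 CPM in Foxq1iECKO and 61.8 CPM in Foxq1flox/flox intermediate cells and 47.3 CPM in Foxq1iECKO and 39.3 CPM in Foxq1flox/flox endothelial cells. Itgb8, the integrin subunit with which radial glia activate TGF-beta beside vessels, was at 227 CPM in Foxq1iECKO and 214 CPM in Foxq1flox/flox radial glia, against 48.3 CPM in Foxq1iECKO and 24.6 CPM in Foxq1flox/flox intermediate cells and 6.27 CPM in Foxq1iECKO and 4.93 CPM in Foxq1flox/flox endothelial cells. Tgfb2 was at 135 CPM in Foxq1iECKO and 132 CPM in Foxq1flox/flox radial glia, and the growth factor Ptn at 413 CPM in Foxq1iECKO and 376 CPM in Foxq1flox/flox. Of 24 genes of this list measured against the intermediate class, 4 were higher in radial glia (Tgfb2, Itgb8, Ntn1 and Ptn) and 1 lower (Sema3c). Over all 9131 genes compared in that way 2.92% were higher and 6.45% lower. Against endothelial cells 11 of 30 measured genes of the list were higher in radial glia and 11 lower, beside 14.9% higher and 11.7% lower of 9199 genes.

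Wnt7a and Wnt7b, the neural ligands that drive brain vessel growth and barrier formation, were low. Wnt7a was at 3.41 CPM in Foxq1iECKO and 1.99 CPM in Foxq1flox/flox radial glia (12 UMIs in Foxq1iECKO and 7 in Foxq1flox/flox). Wnt7b was at 3.98 CPM [2.17, 6.67] in Foxq1iECKO and 8.51 CPM [5.74, 12.2] in Foxq1flox/flox radial glia, against 18.8 CPM in Foxq1iECKO and 18.03 CPM in Foxq1flox/flox intermediate cells. Sfrp1, a secreted Wnt antagonist, was at 846 CPM in Foxq1iECKO and 1006 CPM in Foxq1flox/flox radial glia, against 272 CPM in Foxq1iECKO and 199 CPM in Foxq1flox/flox intermediate cells, and 6 of 29 measured Wnt pathway genes were higher in radial glia and 0 lower (Fzd8, Fzd10, Tcf7l1, Sfrp1, Ccnd1 and Ccnd2). The shares over all 9131 genes in that comparison were 2.92% higher and 6.45% lower.

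Radial glia were a dividing population. Mki67 was found in 59.8% [55.8, 63.7] in Foxq1iECKO and 64.9% [61.2, 68.4] in Foxq1flox/flox of thinned radial glia, against 25.6% [22.4, 28.9] in Foxq1iECKO and 20.8% [17.6, 24.4] in Foxq1flox/flox of the intermediate class, with unthinned shares in radial glia of 71.1% in Foxq1iECKO and 72.4% in Foxq1flox/flox. Endothelial cells, which had more UMIs per cell, also had high unthinned shares, at 63.6% in Foxq1iECKO and 61.4% in Foxq1flox/flox. Division was thus not particular to radial glia. G2/M genes, which act in the second part of the cycle, summed over 52 genes to 12849 CPM in Foxq1iECKO and 15118 CPM in Foxq1flox/flox radial glia, against 7220.3 CPM in Foxq1iECKO and 6598 CPM in Foxq1flox/flox intermediate cells. S phase genes summed over 42 genes to 5637 CPM in Foxq1iECKO and 6255 CPM in Foxq1flox/flox radial glia, against 2943 CPM in Foxq1iECKO and 2236 CPM in Foxq1flox/flox intermediate cells. Ccnd2, the cyclin of radial glia that is carried to the basal end foot, was at 3081 CPM in Foxq1iECKO and 3041 CPM in Foxq1flox/flox radial glia, against 1457 CPM in Foxq1iECKO and 793 CPM in Foxq1flox/flox intermediate cells. Against the intermediate class 13 of 40 measured S phase genes and 9 of 52 G2/M genes were 2-fold or more higher in radial glia, and 0 lower, beside 2.92% higher and 6.45% lower of all 9131 genes. The rule left out cells with several neuronal genes, and the part of this in the shares was not tested.

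Between genotypes, 64 of 7090 genes at 20 or more CPM were higher in Foxq1iECKO radial glia (0.903%) and 120 lower (1.69%). A gene counted when the levels differed 1.5-fold or more and the interval of the ratio did not hold 1. All log2 ratios put Foxq1iECKO over Foxq1flox/flox, and their median over these genes was -0.04. Scaling by TMM gave 93 higher and 83 lower, and by the median of ratios 86 higher and 95 lower, so the balance between directions turned on the scaling. Radial glia of the 2 libraries may also differ by embryo, litter or dissociation, which cannot be told apart from genotype.

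Core radial glia genes were close between genotypes. Of the 9 genes of the rule 0 were higher and 0 lower, with a median log2 ratio of -0.10, but the choice of cells used these genes. Of 29 measured radial glia genes outside the rule 0 were higher and 0 lower, with a median of -0.02, beside 132 higher (1.47%) and 249 lower (2.77%) and a median of -0.05 over the 8984 genes at 10 or more CPM. Of 22 Notch pathway genes 0 were higher and 0 lower (median -0.03). Pax6 was at 232 CPM in Foxq1iECKO and 249 CPM in Foxq1flox/flox and Sox2 at 405 CPM in Foxq1iECKO and 432 CPM in Foxq1flox/flox. Fabp7 was at 1536 CPM in Foxq1iECKO and 1189 CPM in Foxq1flox/flox (log2 ratio 0.37 [0.31, 0.43]), below the size limit. It was also higher in Foxq1iECKO cells outside radial glia, at 84.7 CPM in Foxq1iECKO and 42.6 CPM in Foxq1flox/flox endothelial cells and 430.5 CPM in Foxq1iECKO and 65.1 CPM in Foxq1flox/flox intermediate cells, and the part of free RNA in this was not tested. With the groups of radial glia weighted equally between the libraries, the log2 ratio of Fabp7 was 0.17, and with each cell thinned to 2000 UMIs it was 0.09.

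Sox1, Sox3 and Nr2e1 stood lower in Foxq1iECKO without passing the size limit. Sox1 was at 140.3 CPM in Foxq1iECKO and 189 CPM in Foxq1flox/flox (log2 ratio -0.43 [-0.60, -0.26]), Sox3 at 148 CPM in Foxq1iECKO and 199 CPM in Foxq1flox/flox (-0.43 [-0.59, -0.26]) and Nr2e1, the orphan receptor Tlx, at 285 CPM in Foxq1iECKO and 374 CPM in Foxq1flox/flox (-0.39 [-0.51, -0.27]). Vegfa had a log2 ratio of 0.06 [-0.15, 0.27] and Foxq1 of -0.58 [-1.48, 0.28]. Wnt7a had a log2 ratio of 0.78 [-0.68, 2.36] and Wnt7b of -1.10 [-2.13, -0.14]. Both lay under 20 CPM, and no difference in Wnt7a was detectable at this depth.

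The list of ventral telencephalon genes had the most lower members of the 45 lists. Dlx1 was at 53.7 CPM in Foxq1iECKO and 153 CPM in Foxq1flox/flox radial glia (log2 ratio -1.51 [-1.76, -1.27]), and Dlx2 at 48.9 CPM in Foxq1iECKO and 124 CPM in Foxq1flox/flox (-1.34 [-1.61, -1.08]). Both are homeobox factors of inhibitory neuron precursors. Sp9, a zinc finger factor of the same lineage, was at 11.9 CPM in Foxq1iECKO and 39.1 CPM in Foxq1flox/flox (-1.71 [-2.25, -1.21]), and Gad2, which makes GABA, at 10.5 CPM in Foxq1iECKO and 25.5 CPM in Foxq1flox/flox (-1.28 [-1.87, -0.71]). Of 14 measured ventral genes 0 were higher and 8 lower (Gad2, Dlx1, Dlx2, Sp9, Dlx6, Dlx5, Ebf1 and Olig2), with a median of -0.67. The Dlx6os1, Sp9 and Dlx1 group held 10 cells in Foxq1iECKO and 26 in Foxq1flox/flox. With equal group weights 0 of the 14 were higher and 0 lower and their median was 0.13, and the log2 ratio of Dlx1 was -0.32. Within the Dlx6os1, Sp9 and Dlx1 group Dlx1 was at 2400.0 CPM in Foxq1iECKO and 2627 CPM in Foxq1flox/flox. The groups behind these weights were themselves formed with the Dlx genes. Without the Dlx6os1, Sp9 and Dlx1 group and the 2 groups with cartilage or myeloid genes, the log2 ratios were -0.64 for Dlx1, -0.60 for Dlx2, -1.40 for Sp9 and -1.21 for Gad2. Dlx1, Dlx2 and Gad2 were still past the size limit there, and the interval of Sp9 held a ratio of 1. Under the stricter choice of cells Dlx1 turned to 0.97 and Gad2 to 0.68. Fewer ventral cells and less RNA per ventral cell cannot be told apart from these sums.

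Spon1, Sulf1 and Sparcl1 were among the 12 highest genes. Spon1, an extracellular protein of the floor plate, was at 88.3 CPM in Foxq1iECKO and 21.6 CPM in Foxq1flox/flox radial glia (2.04 [1.67, 2.42]), Sulf1, which edits heparan sulphate, at 92.3 CPM in Foxq1iECKO and 34.9 CPM in Foxq1flox/flox (1.40 [1.10, 1.72]), and Sparcl1, a matrix protein, at 95.7 CPM in Foxq1iECKO and 39.99 CPM in Foxq1flox/flox (1.26 [0.97, 1.55]). Sparcl1 was higher in endothelial cells, at 867 CPM in Foxq1iECKO and 900 CPM in Foxq1flox/flox. Over all kept cells outside radial glia it was at 338 CPM in Foxq1iECKO and 372 CPM in Foxq1flox/flox. The part of free RNA in its radial glia level was not tested. A single Foxq1iECKO barcode of 20358 UMIs in the Pax3, En2 and Shisa3 group gave 44.7% of the Spon1 UMIs, 29.8% of Sulf1 and 29.1% of Sparcl1 in that library. Without each gene's top barcode in both libraries the log2 ratios were 1.34 for Spon1, 1.09 for Sulf1 and 0.95 for Sparcl1. With the stricter choice of cells Sulf1 turned to -1.01. In the Pax3, En2 and Shisa3 group Spon1 was at 493 CPM in Foxq1iECKO and 109 CPM in Foxq1flox/flox.

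Scg2, a secretogranin, was spread over more cells, at 90.05 CPM in Foxq1iECKO and 40.8 CPM in Foxq1flox/flox radial glia (1.14 [0.85, 1.44]), with a UMI in 109 Foxq1iECKO and 60 Foxq1flox/flox cells and no more than 6.94% of UMIs from 1 barcode in either library. In the Scg2, Chac1 and Stc2 group, 28.0% of Foxq1iECKO and 19.5% of Foxq1flox/flox radial glia, it was at 213 CPM in Foxq1iECKO and 111 CPM in Foxq1flox/flox. With equal group weights its log2 ratio was 0.90. Scg2 led that group and was not left out of its clustering. The group's shares, its Scg2 levels and the equal-weight ratio are therefore not independent of Scg2. Outside radial glia Scg2 was lower in Foxq1iECKO, with log2 ratios of -0.66 in the intermediate class and -0.67 in all other kept cells. Hbegf, a growth factor of the EGF family, was at 24.4 CPM in Foxq1iECKO and 9.93 CPM in Foxq1flox/flox (1.30 [0.72, 1.91]), with a UMI in 66 Foxq1iECKO and 29 Foxq1flox/flox cells. Klf2 was at 36.9 CPM in Foxq1iECKO and 16.2 CPM in Foxq1flox/flox (1.19 [0.73, 1.67]), with 63.8% of its Foxq1iECKO UMIs in the 2 groups with cartilage or myeloid genes, and 0.57 without these groups. Cd36 was at 26.99 CPM in Foxq1iECKO and 7.66 CPM in Foxq1flox/flox (1.82 [1.19, 2.49]). The barcode of 20358 UMIs gave 30.5% of its Foxq1iECKO UMIs, and the groups with cartilage or myeloid genes held 46.3% of its UMIs in Foxq1iECKO and 77.8% in Foxq1flox/flox. The log2 ratio of Cd36 was 3.06 without these groups and 0.42 with the stricter choice of cells. The log2 ratios of Scg2 and Hbegf stayed above 0 and past the size limit under every setting reported.

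Prg2, Ear1, S100a8, S100a9 and Lyz2, all genes of granulocytes or macrophages, were also among the 12 highest. Prg2 had 134 UMIs in Foxq1iECKO, 133 of them in 1 barcode, and 1 UMI in Foxq1flox/flox. Ear1 had 86 UMIs in Foxq1iECKO, 85 of them in the same barcode, and 0 in Foxq1flox/flox, at least 28.7-fold higher against a floor of 3 counts over the library's radial glia. S100a8 was at 26.99 CPM in Foxq1iECKO and 7.09 CPM in Foxq1flox/flox with 93 of its 95 Foxq1iECKO UMIs in 1 barcode, and S100a9 at 25.00 CPM in Foxq1iECKO and 10.8 CPM in Foxq1flox/flox with 77 of its 88 Foxq1iECKO UMIs and 37 of its 38 Foxq1flox/flox UMIs in 1 barcode of each library. Lyz2 was at 83.8 CPM in Foxq1iECKO and 34.9 CPM in Foxq1flox/flox, with 93.9% of its Foxq1iECKO and 93.5% of its Foxq1flox/flox UMIs in the groups with cartilage or myeloid genes. Its log2 ratio without those groups was 1.14 [-0.14, 2.55], an interval that held a ratio of 1. Prg2, Ear1, S100a8 and S100a9 thus rested on single barcodes.

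The rest of the 12 lowest were of mixed kinds. Papss2, a sulphation enzyme of cartilage, was at 10.8 CPM in Foxq1iECKO and 37.4 CPM in Foxq1flox/flox radial glia (-1.79 [-2.35, -1.26]), with 76.3% of its Foxq1iECKO and 79.5% of its Foxq1flox/flox UMIs in the groups with cartilage or myeloid genes. Its log2 ratio without those groups was -1.62 [-2.89, -0.49]. The inflammatory gene Il1a was at 7.67 CPM in Foxq1iECKO and 22.97 CPM in Foxq1flox/flox, Cxcl10 at 48.01 CPM in Foxq1iECKO and 90.5 CPM in Foxq1flox/flox and Tnf at 13.6 CPM in Foxq1iECKO and 29.8 CPM in Foxq1flox/flox. Without those groups the log2 ratios were 1.70 [-0.25, 4.20] for Il1a, 0.86 [0.19, 1.57] for Cxcl10 and 0.62 [-0.88, 2.23] for Tnf, and Cxcl10 was the one past the size limit, in the other direction. Ccser1 was at 21.6 CPM in Foxq1iECKO and 50.2 CPM in Foxq1flox/flox (-1.22 [-1.62, -0.82]) with a UMI in 65 Foxq1iECKO and 90 Foxq1flox/flox cells. Nr6a1os, an antisense RNA of the early gene Nr6a1, was at 25.00 CPM in Foxq1iECKO and 52.5 CPM in Foxq1flox/flox (-1.07 [-1.45, -0.70]) with a UMI in 66 Foxq1iECKO and 108 Foxq1flox/flox cells. No source used here says whether counting kept the strands apart, so its reads and those of Nr6a1 cannot be told apart with certainty. Dlx6os1, which lies antisense to Dlx6, carries the same limit, and was at 9.66 CPM in Foxq1iECKO and 24.7 CPM in Foxq1flox/flox (-1.35 [-1.97, -0.77]). Tfap2b, a neural crest factor, was at 9.37 CPM in Foxq1iECKO and 21.8 CPM in Foxq1flox/flox (-1.22 [-1.85, -0.61]). The groups with cartilage or myeloid genes held 54.5% of its Foxq1iECKO and 63.6% of its Foxq1flox/flox UMIs. Without them the log2 ratio of Tfap2b was -0.93 [-1.94, 0.02], an interval that held a ratio of 1. Tfap2b was also lower in Foxq1iECKO in the intermediate class (-1.15) and in all other kept cells (-0.79).

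**Figure D5:**
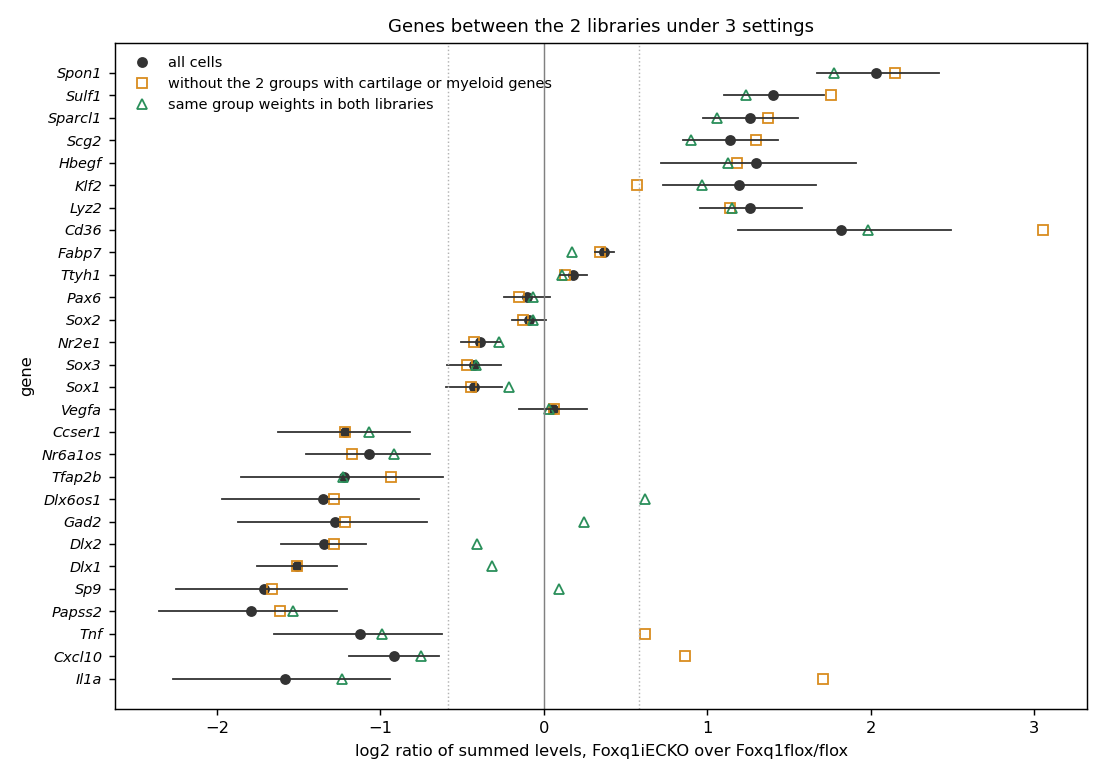
Log2 ratio of summed levels in radial glia, Foxq1iECKO over Foxq1flox/flox, for named genes (rows), with all radial glia (filled circles, lines are exact 95% intervals of counting error), without the 2 groups that carry cartilage or myeloid genes (squares) and with the same group weights in both libraries (triangles). Dotted lines mark 1.5-fold; Dlx1, Dlx2, Sp9 and Gad2 lie between -0.41 and 0.25 with equal weights, and Tnf, Cxcl10 and Il1a turn above 0 without the 2 groups.

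Cell cycle genes were compared between genotypes in 4 lists. Top2a, a topoisomerase of dividing cells, was at 866 CPM in Foxq1iECKO and 1263 CPM in Foxq1flox/flox radial glia, a log2 ratio of -0.54 [-0.61, -0.48], and Mki67 at 865 CPM in Foxq1iECKO and 1116 CPM in Foxq1flox/flox, a log2 ratio of -0.37 [-0.44, -0.30]. Neither passed the size limit. Of 52 G2/M genes 0 were higher and 1 lower (Ttk, a spindle checkpoint kinase), with a median log2 ratio of -0.22, and of 42 S phase genes 0 were higher and 3 lower (Cdca7, Rpa2 and Cdc6), with a median of -0.24. Of 18 microcephaly and spindle genes 0 were higher and 1 lower (Mcph1), with a median of -0.31. Of 20 cyclins and genes of cell cycle exit 0 were higher and 0 lower, with a median of -0.08. Over all 8984 genes 2.77% were lower and the median was -0.05. With equal group weights the medians were -0.12 for G2/M genes, -0.23 for S phase genes and -0.16 for the spindle genes. The share of thinned radial glia with a Top2a UMI was 55.4% [51.4, 59.4] in Foxq1iECKO and 59.9% [56.2, 63.6] in Foxq1flox/flox, with unthinned shares of 66.5% in Foxq1iECKO and 68.2% in Foxq1flox/flox, and the intervals overlapped.

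Stress and signalling lists were read beside the 1.47% higher and 2.77% lower of all 8984 genes. Of 20 genes of the unfolded protein and integrated stress responses 1 was higher (Chac1, at 48.01 CPM in Foxq1iECKO and 28.6 CPM in Foxq1flox/flox) and 0 lower, with a median of 0.22, and 4 were higher without the groups with cartilage or myeloid genes. Of 22 immediate early and heat shock genes 2 were higher (Fosb and Klf2) and 0 lower, with a median of 0.12. Of 9 interferon genes 2 were higher (Rsad2 and Ifit1), with a median of 0.00, and 0 were higher without the groups with cartilage or myeloid genes. Of 10 cortical hem and choroid plexus genes 3 were higher (Msx1, Rspo3 and Ttr) and 0 lower, and with equal group weights 2 were higher and 1 lower. Of 23 ligands towards vessels 2 were higher and 1 lower: Ntn1, at 83.8 CPM in Foxq1iECKO and 46.8 CPM in Foxq1flox/flox, Angpt1, at 18.5 CPM in Foxq1iECKO and 11.1 CPM in Foxq1flox/flox, and Vegfc, at 19.03 CPM in Foxq1iECKO and 28.9 CPM in Foxq1flox/flox. Of 22 genes of hypoxia and glycolysis 0 were higher and 0 lower, with a median of 0.08.

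Of 19 dorsal telencephalon genes 1 was higher (Eomes, at 34.4 CPM in Foxq1iECKO and 18.7 CPM in Foxq1flox/flox, which the rule used) and 0 lower, and 0 of 12 measured Hedgehog, 0 of 16 FGF and 0 of 24 apical junction genes were higher or lower. Of 30 Wnt pathway genes 1 was higher (Nkd1), and of 20 BMP and Id genes 1 (Msx1). Of 25 basal process and adhesion genes 0 were higher and 2 lower (Hapln1 and Itgb5). Of 16 measured neurogenic genes 1 was higher (Eomes) and 2 lower, Neurod1, at 7.1 CPM in Foxq1iECKO and 17.9 CPM in Foxq1flox/flox, and Dcx, at 31.5 CPM in Foxq1iECKO and 47.9 CPM in Foxq1flox/flox.

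Markers of other cells were measured in radial glia beside these results. The 15 endothelial genes summed to 125 CPM in Foxq1iECKO and 157 CPM in Foxq1flox/flox radial glia, against 5854 CPM in Foxq1iECKO and 6836 CPM in Foxq1flox/flox endothelial cells, and all 15 had a UMI in radial glia of both libraries. The 12 macrophage genes summed to 245 CPM in Foxq1iECKO and 218 CPM in Foxq1flox/flox and the 12 connective tissue genes to 637 CPM in Foxq1iECKO and 696 CPM in Foxq1flox/flox. The 10 pericyte genes summed to 194 CPM in Foxq1iECKO and 161 CPM in Foxq1flox/flox, with Higd1b at 0 in both libraries. The 10 erythroid genes summed to 7.67 CPM in Foxq1iECKO and 58.1 CPM in Foxq1flox/flox, with Hbb-bh1, Alas2 and Slc4a1 at 0 in both, and 79 of the 98 Hba-a2 UMIs of Foxq1flox/flox radial glia lay in 1 barcode.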

How the data were processed

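Per the labels' protocols, E12.5 brains were digested, CD31-positive cells were taken with magnetic beads and single-cell 3′ libraries with UMIs were made. Per the submitters' processing notes, fastp 0.24.0, STARsolo 2.7.11b and the mm10 build were used. The deposited values are raw UMI counts per gene and barcode, 1 matrix of 31253 genes per library. No cell annotation was used.

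Cells and classes were chosen by the limits given above. Counts were summed per class and library and divided by the class total (CPM). Genes reaching 20 CPM in either library were compared by size. Lists used 10 CPM and classes a pseudocount of 5 CPM with a 2-fold limit in both libraries. Intervals (Poisson for levels, Clopper-Pearson for shares, conditional binomial for ratios) are exact 95% intervals of counting error. Radial glia were clustered on 2000 variable genes, 30 components and 20 neighbours (Leiden, resolution 0.6). Scrublet, with 8% expected doublets, marked 516 Foxq1iECKO and 534 Foxq1flox/flox barcodes, which were kept. Free RNA was not removed. Alternatives included a stricter choice of cells (6 or more of the 9 genes, 0 excluded genes) and a looser one (3 or more). Some planned values are not reported here.

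The members and lists were chosen with earlier results of these data known. Named genes were the 12 highest and 12 lowest past the size limit, the 20 leading genes and fixed genes of interest. The 12 highest and 12 lowest were ranked by the limit of the log2 ratio interval nearest to 0. Mitochondrial, ribosomal protein, haemoglobin, sex-linked and predicted genes were left out of that ranking. The haemoglobin gene Hba-a2, left out in this way, had 11 UMIs in Foxq1iECKO and 98 in Foxq1flox/flox radial glia. Other genes named from the lists or groups were chosen after their values were seen. On simulated data of 6873 genes the size rule called 53.7% of 67 genes changed 1.5-fold and 100% of those changed 2- or 4-fold, and 0.240% of 6673 unchanged genes. The simulated counts were Poisson, as the intervals assume, and held no UMIs gathered in single barcodes and no differences between embryos. These rates therefore do not give the rate of false calls in the real libraries. Python 3.11.15, scanpy 1.11.5, leidenalg 0.10.2, scipy 1.17.1 and R 4.3.3 with edgeR 4.0.16 (TMM) and DESeq2 1.42.0 (median of ratios) were used, the last 2 for scaling only.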

Additional observations from a re-analysis of the deposited data

How the results depend on the processing

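Counts of genes higher and lower by size in Foxq1iECKO radial glia were 64 and 120. They were 220 and 221 with the stricter choice of cells, 204 and 362 at 5 or more CPM, 278 and 458 with no filter, and 12 and 17 with a 2-fold limit. Thinned to 2000 UMIs, 105 were higher. Of the 64 and 120 genes, 19 and 25 were also called with the stricter choice. Radial glia made up 1.11% of Foxq1iECKO and 1.45% of Foxq1flox/flox cells with the stricter choice, 6.87% of Foxq1iECKO and 6.77% of Foxq1flox/flox cells with the looser, and 4.78% of Foxq1iECKO and 4.98% of Foxq1flox/flox cells without the groups with cartilage or myeloid genes. With at most 10% mitochondrial UMIs the Foxq1iECKO share was 5.58%. Resolution 1.0 gave 14 groups in place of 9.

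These log2 ratios changed sign. With the stricter choice they were -1.01 for Sulf1, 0.97 for Dlx1, 2.42 for Il1a, 0.68 for Gad2, 1.34 for Cxcl10 and 0.0059 for Wnt7b. Thinned, S100a8 was at -0.057 and S100a9 at -0.0030. With equal weights Sp9 was at 0.094, Dlx6os1 at 0.62 and Gad2 at 0.25. Without the groups with cartilage or myeloid genes Prg2 was at -0.032, S100a8 at -1.62, Il1a at 1.70, Cxcl10 at 0.86 and Tnf at 0.62, and without the Dlx group too they were at -0.081, -1.67, 1.66, 0.92 and 0.57. Without each gene's top barcode S100a8 was at -0.58. The cause was not tested. Leaving out groups or top barcodes, and clustering without the genes past the size limit, were chosen after seeing the data.

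No paired analysis was possible because each genotype has 1 library. The same limit leaves embryo, litter and handling without a measure, and genes of few UMIs cannot be compared at this depth.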

Other observations

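The cortical intermediate class was compared for 4 genes chosen after their values were seen. Aldoc was at 39.9 CPM in Foxq1iECKO and 5.52 CPM in Foxq1flox/flox intermediate cells, Ednrb at 75.04 CPM in Foxq1iECKO and 12.9 CPM in Foxq1flox/flox and Hes1 at 114 CPM in Foxq1iECKO and 32.4 CPM in Foxq1flox/flox. Tubb3 was at 618 CPM in Foxq1iECKO and 845 CPM in Foxq1flox/flox. The class held 802 Foxq1iECKO and 626 Foxq1flox/flox cells, and Scrublet called 60 of them doublets in Foxq1iECKO and 33 in Foxq1flox/flox. Gated neurons other than these numbered 416 in Foxq1iECKO and 950 in Foxq1flox/flox.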
